A study of Mus musculus with 9 samples.

Results

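The genes described here are 39 genes of glucose breakdown and of the cellular response to low oxygen, among 23420 genes measured in mouse regulatory T cells (Tregs). They were chosen by symbol, from the known steps of the pathway, with earlier results of these data known. Those with a mean of 10 or more normalized read counts over all libraries were compared between groups. The threshold left 38 of the 39, and each of these 38 also had a mean of 10 or more in both node groups. Eno2, a neuronal enolase, fell just short with a mean of 9.82 and was not tested. Tregs, a class of CD4 T cells defined by the factor Foxp3, hold immune responses in check. RNA was sequenced from 3 groups of 3 libraries. The first was Tregs from the synovium, the joint lining, of mice with collagen-induced arthritis, a model in which immunization with collagen brings on inflammatory joint disease. The second came from the lymph nodes draining the joints of arthritic mice, and the third from the draining nodes of control mice given no treatment. All mice were labelled wild type and carried a YFP reporter of Foxp3 on which the cells were sorted after digestion of paws and nodes. The sources used here do not give strain, age or the number of cells sorted.

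In glycolysis, glucose enters through transporters, is phosphorylated by hexokinase and is split and oxidized to pyruvate. Pyruvate either becomes lactate, which leaves the cell, or enters mitochondria for oxidation by pyruvate dehydrogenase. When oxygen is scarce, prolyl hydroxylases of the Egln family no longer mark Hif1a for destruction through Vhl, and Hif1a then pairs with Arnt and raises transcription of many of these genes. Activated T cells also raise glycolysis when oxygen is plentiful, and in Tregs the balance of glycolysis and mitochondrial oxidation has been linked to migration and suppressive function.

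Each library held 11300406 to 12855435 reads assigned to genes, and the first principal component (53.1% of the variance) divided synovium from nodes. On the next component (10.9%) control node library 1 stood apart, with a score of 83.5 where the others had -41.4 to 18.8. Foxp3 was read in every library, at 413 to 538 normalized counts in synovium, 222 to 294 in arthritic nodes and 170 to 404 in control nodes. Of the 12 fibroblast markers in the table, 10 were highest among synovial libraries in synovial library 3. Thy1, which mouse T cells also express, and Prg4, which was lower in synovium, made up most of the sum of all 12, from 3126 to 7691 normalized counts in synovium and 3798 to 4632 in arthritic nodes. The other 10, set apart after their values were seen, summed to 196, 160 and 3731 in synovial libraries 1, 2 and 3 and 1.74, 36.6 and 227 in those of arthritic nodes. For the marker calls that follow, limma called 17.9% of all genes tested higher and 15.9% lower in synovium than in arthritic nodes. Sparc and Fn1, both matrix genes of fibroblasts, were called higher in synovium by limma, at means of 294 against 15.5 and 450.1 against 12.9. Sparc had 44.1, 71.6 and 768 in synovial libraries 1, 2 and 3 and 0.87, 0.96 and 44.6 in arthritic nodes, with overlap. Fn1 had 65.0, 45.8 and 1239 in synovium and 0, 12.5 and 26.2 in arthritic nodes. Pdgfrb was at 0 in synovium. Of 5 macrophage markers tested, Cd14 was higher (111 against 4.95 in arthritic nodes) and Apoe lower (52.5 against 489), or 20% each, near the shares of all genes. The 11 in the table summed to 118 to 370 in synovium and 194 to 1282 in arthritic nodes, and C1qc and Mrc1 were at 0 in synovium. Of 2 neutrophil markers tested, Ltf was higher (55.2 against 6.09). The 11 in the table summed to 451 to 707 against 43.5 to 256, most of it Mmp9 (501 against 128), S100a8 had reads in synovium only (a mean of 13.2), and Csf3r and Elane were at 0 in every library. Of 4 dendritic cell markers tested, 3 were higher: Xcr1 (439 against 21.0), Zbtb46 (560.4 against 22.4) and Cd74 (13059 against 4805). The 10 in the table summed to 12996 to 15839 against 4446 to 5337, most of it Cd74, and Itgax and Clec9a were at 0 in synovium. Of 26 genes known to respond to tissue dissociation and stress, 21 were higher and none lower in synovium by limma, against 17.9% and 15.9% of all genes. The 26 summed to 300410 to 337946 against 79473 to 109860. Among these, Atf3 and Hspa1b, like Cd14 and Ltf above, had means under 10 in both node groups. They passed the threshold through synovium alone and so had to be higher there. Paws and nodes were both digested, and the part of these markers, of stress genes or of single libraries in the results was not tested except where a value without synovial library 3 is given.

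The comparison of synovial with node Tregs of arthritic mice asked how these genes differ between the inflamed joint and its draining node. Of the 38 members tested, 19 were higher and 3 lower in synovium, and 16 did not pass (limma, Benjamini-Hochberg adjusted p under 0.05 over 11357 genes). In the same comparison 17.9% of all genes tested were higher and 15.9% lower. The median log2 difference was 0.57 for the members tested and 0.00 for all genes tested. Every synovial library lay above every arthritic node library for 22 members, as for 25.2% of all genes, and below for 4, as for 23.0%. Quantile scaling moved the median of all genes to -0.12 and the share of calls that were higher from 52.9% to 42.2%, and 14 members were then higher and 3 lower. The calls of Arnt, Bnip3l, Ldha, Pfkp and Pkm were the ones lost under it. The rises were led by the oxygen sensor Egln3, the hexokinase Hk2, the lactate exporter Slc16a3 and the transcription factor Hif1a, and the largest fall was that of the pyruvate dehydrogenase kinase Pdk1. In bulk RNA a lower level can come from fewer cells of a type or from less RNA per cell, and these cannot be told apart.

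**Figure D1:**
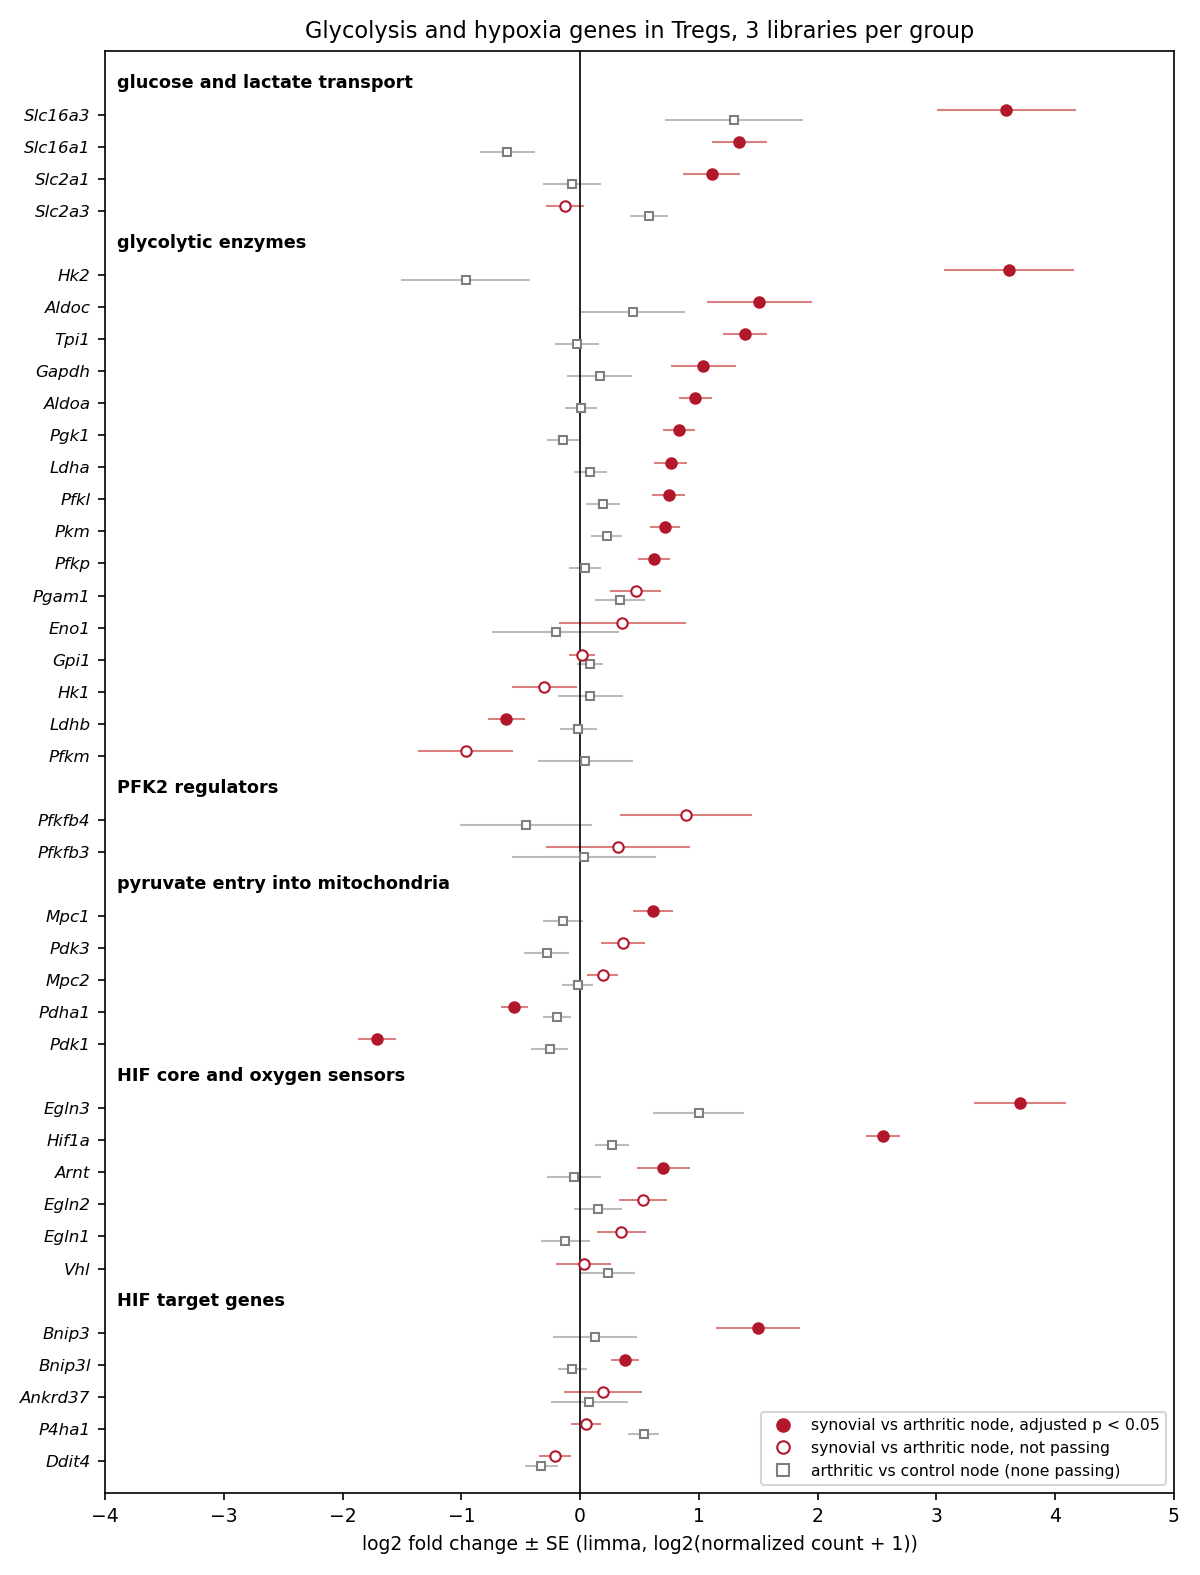
Log2 fold changes with standard errors (horizontal axis) of the 38 members tested, grouped by role; red points compare synovial with node Tregs of arthritic mice, filled where the adjusted p was under 0.05, and grey squares compare node Tregs of arthritic with control mice. The red points of Egln3, Hk2, Slc16a3 and Hif1a lie at 3.71, 3.61, 3.59 and 2.55, Pdk1 lies at -1.71, and no grey square passed.

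Among the 6 genes of the HIF core and its oxygen sensors, 3 rose in synovium (Hif1a, Arnt, Egln3), and none fell, where 17.9% and 15.9% of all genes did. Hif1a, the oxygen-regulated subunit of the factor, was read at 22586, 18600 and 25970 normalized counts in the synovial libraries, 3652, 4106 and 3609 in arthritic nodes and 3776, 3055 and 2681 in control nodes. Every synovial library lay far above every node library, and the node groups overlapped. Its log2 difference between synovium and arthritic node was 2.55 ± 0.14 (SE), a 5.86-fold change with an adjusted p of 1.05e-07. Egln3, a hydroxylase that acts on Hif1a and is itself a known HIF target, had 979.6, 1138 and 1802 normalized counts in synovium, 117, 84.7 and 89.1 in arthritic nodes and 27.1, 76.7 and 51.1 in control nodes. The synovial libraries again stood clear of all node libraries, and the log2 difference from arthritic nodes was 3.71 ± 0.39 (adjusted p = 1.6e-05). Arnt, the constant partner of Hif1a, rose by 0.70 ± 0.22 on the log2 scale (adjusted p = 0.0299). That call was lost when synovial library 2 or 3 or arthritic node library 1 or 2 was left out (adjusted p of 0.107, 0.058, 0.112 and 0.093).

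The other sensors did not pass. Egln2 averaged 722 ± 83.5 (SD, n = 3) in synovium and 503 ± 90.9 in arthritic nodes, without overlap, for a log2 difference of 0.53 and an adjusted p of 0.0606. Egln1, regarded as the main oxygen sensor of most cells, averaged 443 and 349, and Vhl, the ubiquitin ligase subunit that recognizes hydroxylated Hif1a, 347 and 337. As a share of all normalized counts, the 6 genes took 0.157 to 0.220% of synovial libraries and 0.0485 to 0.0526% of those of arthritic nodes, and most of that was Hif1a. Total normalized counts differed, at 13695934 to 14287247 in synovium, 11050277 to 11395797 in arthritic nodes and 10843384 to 11341883 in control nodes. Shares, here and below, therefore set synovium lower against nodes than normalized counts do.

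**Figure D2:**
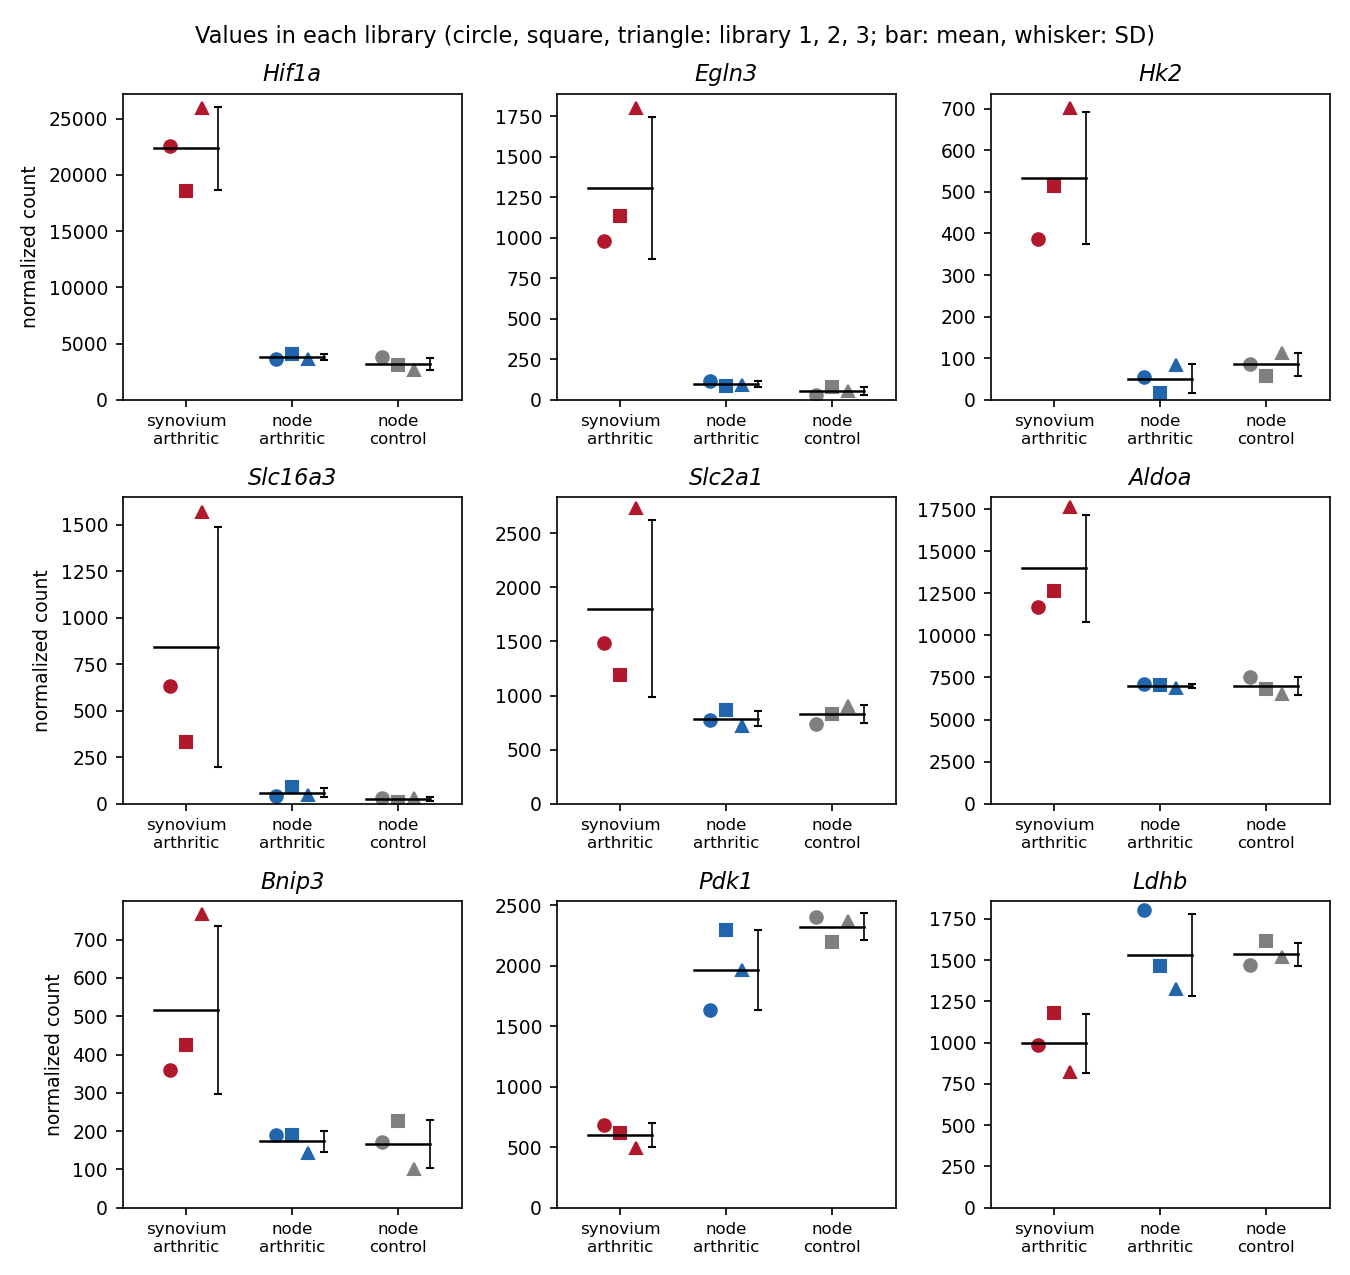
Normalized counts (vertical axis, linear) of 9 members in each library, with circle, square and triangle for libraries 1, 2 and 3, a bar for the group mean and a whisker for the SD. Hif1a, Egln3, Hk2, Slc16a3, Slc2a1, Aldoa and Bnip3 are above all 6 node libraries in each synovial library, Pdk1 and Ldhb are below them, and synovial library 3 is the highest for all 7 of the first.

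HIF binds a core of ACGTG or GCGTG. The bases before the transcription start are shown for the 4 members with the largest rises and for Pdk1, the member with the largest fall, with each core on either strand in capitals (CACGT and CACGC are the same cores on the other strand). Sequences are from RefSeq on GRCm38.p6, written 5′ to 3′ on the gene's strand.
Egln3: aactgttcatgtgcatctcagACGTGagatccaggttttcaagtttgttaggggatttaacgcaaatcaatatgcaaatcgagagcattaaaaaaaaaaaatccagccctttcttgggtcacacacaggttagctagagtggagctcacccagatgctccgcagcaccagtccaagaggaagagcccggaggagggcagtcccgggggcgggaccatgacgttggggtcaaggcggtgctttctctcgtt
Slc16a3: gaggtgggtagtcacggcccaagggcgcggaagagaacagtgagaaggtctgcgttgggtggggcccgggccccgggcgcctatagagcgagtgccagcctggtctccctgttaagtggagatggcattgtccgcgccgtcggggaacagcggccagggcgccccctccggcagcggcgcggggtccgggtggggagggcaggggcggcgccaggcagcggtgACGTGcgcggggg
Hk2: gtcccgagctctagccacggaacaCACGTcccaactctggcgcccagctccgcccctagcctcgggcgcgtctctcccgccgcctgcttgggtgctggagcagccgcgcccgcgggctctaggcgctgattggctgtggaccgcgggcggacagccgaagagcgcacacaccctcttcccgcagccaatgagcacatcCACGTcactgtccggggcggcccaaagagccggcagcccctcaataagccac
Hif1a: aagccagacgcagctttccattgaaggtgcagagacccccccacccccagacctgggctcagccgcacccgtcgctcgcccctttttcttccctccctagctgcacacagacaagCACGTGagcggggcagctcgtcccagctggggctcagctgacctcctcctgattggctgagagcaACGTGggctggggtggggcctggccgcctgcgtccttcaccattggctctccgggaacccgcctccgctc
Pdk1: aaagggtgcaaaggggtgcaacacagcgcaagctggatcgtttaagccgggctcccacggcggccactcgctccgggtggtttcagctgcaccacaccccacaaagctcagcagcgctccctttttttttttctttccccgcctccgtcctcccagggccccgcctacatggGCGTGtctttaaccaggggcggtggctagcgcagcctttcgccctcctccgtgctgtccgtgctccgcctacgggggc
The windows are chr12:54203875-54204124 (minus strand) for Egln3, chr11:120948817-120949052 (plus) for Slc16a3, chr6:82774455-82774704 (minus) for Hk2, chr12:73907617-73907866 (plus) for Hif1a and chr2:71872974-71873223 (plus) for Pdk1. Each has 250 bases except that of Slc16a3, where 14 bases annotated as exon were left out and 236 are shown. The full window of Slc16a3, with 250 bases, holds 2 ACGTG and was used for the shares below. Egln3 and Slc16a3 show 1 ACGTG each, Hk2 shows 2, Hif1a shows 3, of which 2 overlap as CACGTG, and Pdk1 shows 1 GCGTG in the first of its 2 RefSeq promoters.

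Promoters were listed for 37 of the 39 members, all but Slc2a3 and Bnip3l, with 52 start sites in all. In windows of 250 bases, either core was present on either strand in 80.8% of these 52, against 38.6% of 32851 promoters of all genes and 56.4% of 10858 promoters of genes tested. The members' windows were also richer in G and C, at a median of 62.4% against 52.4% and 59.6%, and both cores hold a CG pair. Within the members the share was 83.3% of 24 windows of genes higher in synovium and 78.6% of 28 windows of the others. CACGTG, which contains ACGTG on both strands and is also the site read by Myc-type factors, was in 11.5% of the members' windows, 6.02% of all and 8.34% of those of genes tested. These are counts of letters near a start, not of bound sites.

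Of the 4 transporters of glucose and lactate, 3 rose and none fell, where 17.9% and 15.9% of all genes did. Slc16a3 (MCT4), which exports lactate from glycolytic cells, was read at 630.3, 331 and 1568 normalized counts in synovium, 44.4, 88.5 and 45.4 in arthritic nodes and 33.1, 11.7 and 28.3 in control nodes. The synovial values spread 4.73-fold and still lay above every node library, for a log2 difference from arthritic nodes of 3.59 ± 0.58 (adjusted p = 0.000514). Slc16a1 (MCT1), which carries lactate and pyruvate in both directions, had 509, 497 and 430.4 in synovium, 144, 237 and 194 in arthritic nodes and 275, 276 and 314 in control nodes, a rise of 1.34 ± 0.23 over arthritic nodes (adjusted p = 0.000795). It was lowest in arthritic nodes, without overlap with either other group. Slc2a1 (GLUT1), the glucose transporter that activated T cells raise, had 1483, 1193 and 2728 in synovium, 773, 863 and 722 in arthritic nodes and 739, 832 and 908 in control nodes (log2 difference 1.11 ± 0.24, adjusted p = 0.00399). Slc2a3 (GLUT3), the high-affinity transporter of lymphocytes, averaged 2102 ± 400.4 and 2284 ± 356 normalized counts in synovium and arthritic node, and the groups overlapped.

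Of the 16 glycolytic enzyme genes tested, 10 rose and 1 fell, where 17.9% and 15.9% of all genes did. Those that rose covered the steps from hexokinase to lactate dehydrogenase other than the isomerase, the mutase and enolase. Hk2, the inducible hexokinase, had 386, 514 and 702 normalized counts in synovium, 54.8, 15.4 and 83.0 in arthritic nodes and 85.3, 56.9 and 113 in control nodes. All synovial libraries exceeded all node libraries, at a log2 difference of 3.61 ± 0.54 from arthritic nodes (adjusted p = 0.000293), or 2.92 without arthritic node library 2, where Hk2 was lowest, a fold of 7.59 in place of 12.2. Hk1, the hexokinase made at a steady level in most cells, averaged 995 ± 471 in synovium and 1156 ± 191 in arthritic nodes and did not pass. Without synovial library 3, where Hk1 was 2.09 times the mean of libraries 1 and 2, it was lower in synovium, at a log2 difference of -0.66 with an adjusted p of 0.0348.

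The abundant enzymes rose by smaller folds than Hk2. Aldoa, the main aldolase outside liver and brain, was read at 11685, 12627 and 17627 normalized counts in synovium, 7118, 7043 and 6888 in arthritic nodes and 7557, 6844 and 6531 in control nodes. The node libraries differed little among themselves, and the rise over arthritic nodes was 0.97 ± 0.14 (adjusted p = 0.00017). Tpi1, which interconverts the 3-carbon sugars, rose by 1.39 ± 0.18, from a mean of 852 ± 58.5 to 2296 ± 725. Pgk1, the first ATP-yielding step, rose by 0.83, Ldha, which makes lactate from pyruvate, by 0.76, and Pkm, pyruvate kinase, by 0.72. Both phosphofructokinase subunits common in lymphocytes rose, Pfkl by 0.75 and Pfkp by 0.62, and Pfkm, the muscle form, averaged 77.7 ± 21.0 in synovium and 154 ± 44.5 in arthritic nodes without passing (adjusted p = 0.0817). Aldoc, the brain aldolase, had a mean of 271 ± 27.2 against 97.6 ± 29.9 and rose by 1.51 ± 0.44. This call was lost without synovial library 2 or 3 or arthritic node library 2 (adjusted p of 0.0575, 0.058 and 0.0783). Ldhb, the subunit that favours pyruvate, was the enzyme that fell, with 985, 1181 and 825 in synovium, 1805, 1461 and 1326 in arthritic nodes and 1471, 1613 and 1517 in control nodes (a log2 difference of -0.62 ± 0.16, adjusted p = 0.00921).

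Gpi1, Pgam1 and Eno1 did not pass. Gpi1, the isomerase after hexokinase, was nearly level, at 3369 ± 436 in synovium and 3316 ± 77.1 in arthritic nodes. Pgam1, phosphoglycerate mutase, averaged 394.5 ± 62.9 and 283 ± 13.8, without overlap, with a log2 difference of 0.47 and an adjusted p of 0.112. For Eno1 and for Gapdh, which rose by 1.04 ± 0.27, the level is uncertain, since 72.2% and 82.5% of the 50-base stretches of their longest coding transcripts also occur in other genes, mostly processed pseudogenes. The same holds for Pgk1 (68.0%) and Bnip3 (62.4%), and 15 members shared 10% or more. The exons of 14 members, Hif1a among them, overlapped a gene on the other strand, and whether strand was used in counting was not given.

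Per kilobase of the longest coding transcript, the most abundant members in synovium were Ldha at 9566 normalized counts per kb, Aldoa at 9025, Pkm at 8533 and Hif1a at 4739. In arthritic nodes these genes stood at 5561, 4530, 5120 and 802 per kb. Hk2 stood at 96.9 per kb in synovium and 9.26 in arthritic nodes, beside 233 and 270.1 for Hk1. The 17 enzyme genes together took 0.415 to 0.605% of the normalized counts of synovial libraries, 0.364 to 0.372% in arthritic nodes and 0.330 to 0.356% in control nodes. The synovial range did not overlap either node range, and its top value was synovial library 3.

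**Figure D3:**
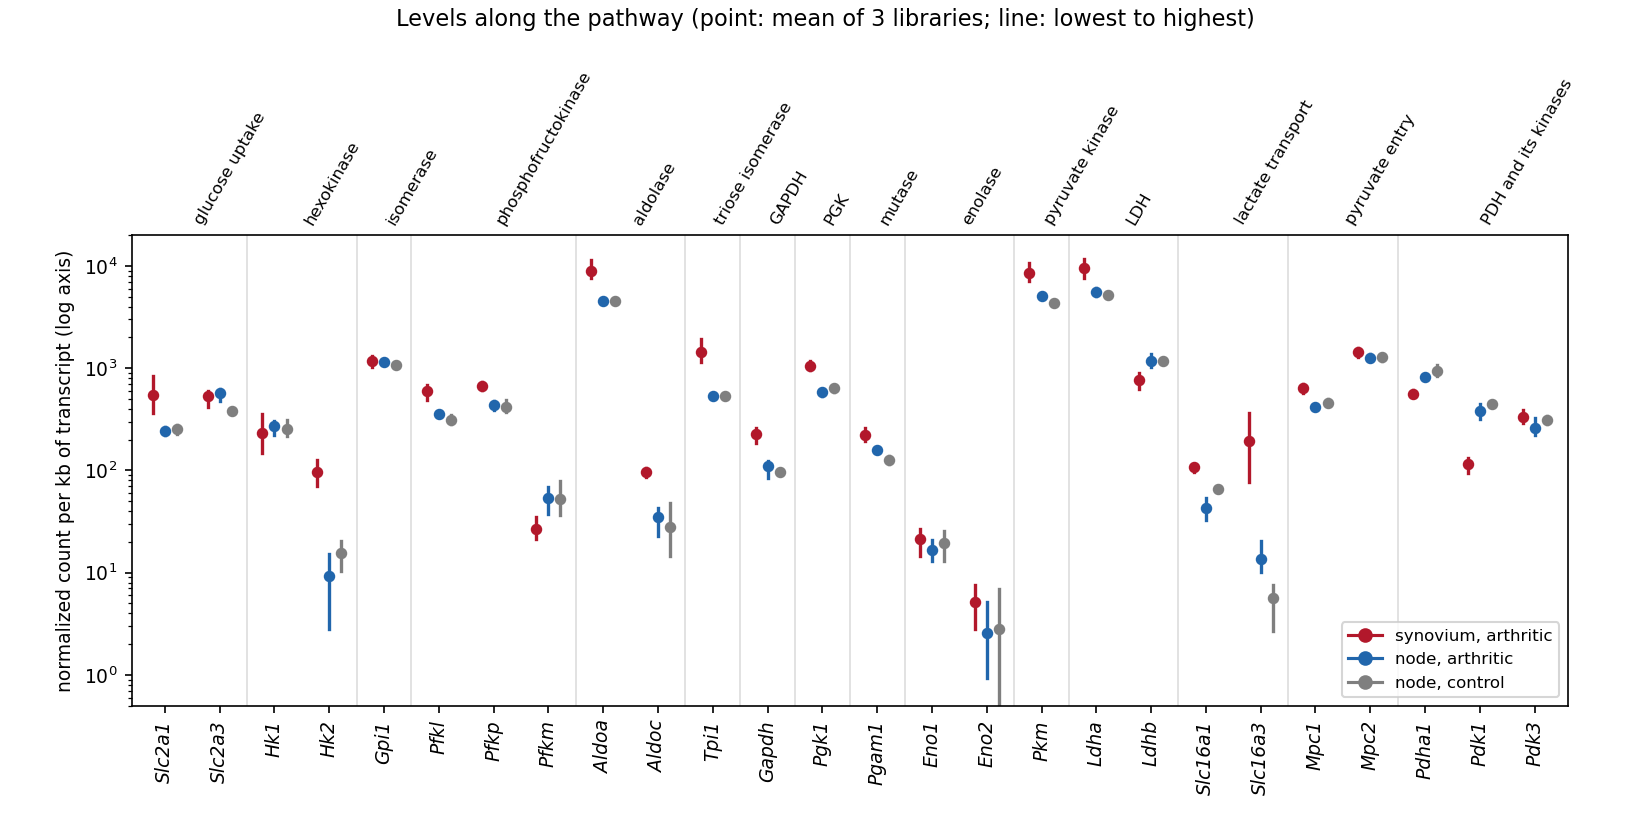
Normalized counts per kilobase of transcript (log axis) for the members on the path from glucose uptake to pyruvate oxidation, as the mean of 3 libraries with a line from the lowest to the highest; red is synovium, blue arthritic node, grey control node, and a line that runs off the bottom ends at 0. Aldoa, Pkm and Ldha lead in all 3 groups, Hk2 and Slc16a3 rise from under 20 per kb in nodes to 96.9 and 194 in synovium, and Pdk1 drops from 379 in arthritic nodes to 116.

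Neither of the PFK2 regulators, Pfkfb3 and Pfkfb4, which set the level of the sugar phosphate that activates phosphofructokinase, passed. Pfkfb3 had 205, 135 and 262 normalized counts in synovium and 249, 327 and 45.4 in arthritic nodes. Arthritic node library 3 was far below the other libraries there, and the sign of the difference depended on it, with log2 values of 0.32 in all libraries and -0.56 without it. Pfkfb4 averaged 70.3 ± 14.2 and 42.5 ± 27.0.

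Of the 5 genes that govern entry of pyruvate into mitochondria, 1 rose and 2 fell, where 17.9% and 15.9% of all genes tested did. The count that rose (20%) was near the share of all genes. Pdk1, a kinase that shuts off pyruvate dehydrogenase and a textbook HIF target in other cells, had 688, 616 and 494 normalized counts in synovium, 1635, 2294 and 1961 in arthritic nodes and 2404, 2196 and 2366 in control nodes. Each synovial library held less than each node library, and the fold in favour of arthritic nodes was 3.27 (a log2 difference of -1.71 ± 0.16, adjusted p = 5.81e-06). Pdha1, the catalytic subunit that the kinase acts on, had 1572, 1495 and 1734 in synovium, 2407, 2339 and 2289 in arthritic nodes and 3027, 2634 and 2409 in control nodes (log2 difference -0.55 ± 0.12, adjusted p = 0.00297). Mpc1, a subunit of the mitochondrial pyruvate carrier, rose by 0.62 ± 0.17, a call lost without arthritic node library 2 (adjusted p = 0.0514), while its partner Mpc2 averaged 1474 ± 151 and 1292 ± 116 and Pdk3, another of the kinases, 703 ± 111 and 550.3 ± 116, neither passing. The 5 genes took 0.0338 to 0.0371% of normalized counts in synovium, 0.0569 to 0.0594% in arthritic nodes and 0.0647 to 0.0692% in control nodes.

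Of 5 further HIF target genes, 2 rose and none fell, where 17.9% and 15.9% of all genes did. Bnip3, which marks mitochondria for removal, had 359, 424 and 766 normalized counts in synovium, 190, 190 and 142 in arthritic nodes and 171, 227 and 101 in control nodes, a rise of 1.50 ± 0.35 (adjusted p = 0.00599). Bnip3l, its close relative, was higher by 0.38 ± 0.12, from 2346 ± 231 to 3047 ± 308. With the mouse number as a block, since synovium and node came from the same arthritic mice, Bnip3l no longer passed (adjusted p = 0.0513), and it was lost without synovial library 1 or 2 or arthritic node library 2 or 3 (adjusted p from 0.0766 to 0.115). P4ha1, a collagen prolyl hydroxylase, averaged 2058 ± 207 and 1995 ± 279, Ankrd37 averaged 154 ± 19.5 and 134 ± 12.3, and Ddit4, an inhibitor of mTORC1 that hypoxia and stress induce, averaged 1003 ± 97.1 and 1161 ± 105. Each of these last 3 overlapped between synovium and arthritic node. The 5 genes together took 0.0481 to 0.0493% of normalized counts in synovium, 0.0493 to 0.0558% in arthritic nodes and 0.0488 to 0.0515% in control nodes. Their summed normalized counts were instead higher in each synovial library (6583, 7046 and 6710) than in any node library. Those sums were 6242, 5624 and 5563 in arthritic nodes and 5531, 5604 and 5587 in control nodes, with total counts larger in synovium.

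Several steps are served by more than one gene, and the balance within 11 such pairs was compared per library as a log2 ratio of normalized counts, without correction for length. The ratio of Hk2 to Hk1 was -1.10, -0.30 and -1.12 in synovium and -4.08, -6.22 and -3.96 in arthritic nodes, a difference of 3.91, or 3.18 without arthritic node library 2. Egln3 to Egln2 differed by 3.17, Slc16a3 to Slc16a1 by 2.25 (1.58 without synovial library 3) and Pdk3 to Pdk1 by 2.07, all towards the first gene in synovium. In the other direction Pfkm to Pfkl differed by -1.71, Ldhb to Ldha by -1.39, Slc2a3 to Slc2a1 by -1.23 and Bnip3l to Bnip3 by -1.12. In these 8 pairs no synovial library overlapped an arthritic node library, while Pfkp to Pfkl, Pfkfb4 to Pfkfb3 and Aldoc to Aldoa overlapped. An exact two-sided permutation test of 3 libraries against 3 cannot give a p below 0.1, the value of each of the 8 (0.138 adjusted over the 11 pairs), so none could pass 0.05.

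**Figure D4:**
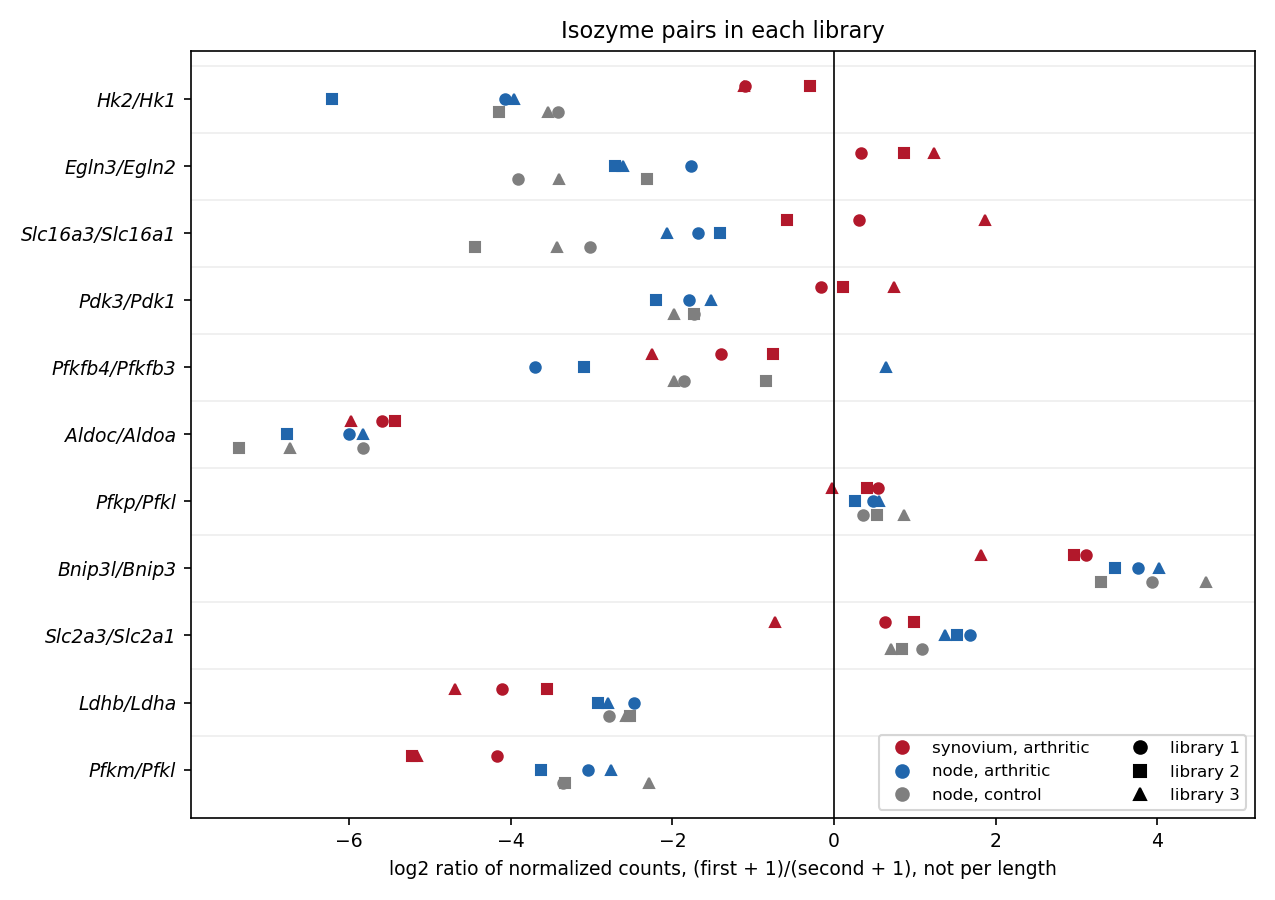
Log2 ratio of normalized counts (horizontal axis) within 11 pairs of genes serving the same step, a point per library, with colour for the group and shape for the library. The red synovial points lie right of the blue arthritic node points for Hk2/Hk1, Egln3/Egln2, Slc16a3/Slc16a1 and Pdk3/Pdk1 and left of them for Bnip3l/Bnip3, Slc2a3/Slc2a1, Ldhb/Ldha and Pfkm/Pfkl.

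Synovial library 3, which held the most fibroblast transcripts, was the highest synovial library for 22 of the 38 members and for 14 of the 19 that rose, against 36.3% of all genes. Over the mean of libraries 1 and 2 it stood at 3.26 for Slc16a3, 2.04 for Slc2a1, 1.96 for Bnip3, 1.70 for Egln3, 1.67 for Tpi1 and 1.56 for Hk2. Without it 17 members were higher and 4 lower, where 16.1% and 14.3% of all genes were, and 20 of the 22 calls remained. Aldoc and Arnt were lost and Hk1 was added as lower. The log2 difference of Slc16a3 was then 3.00, a fold of 7.99 in place of 12.04, that of Slc2a1 0.76, Egln3 3.45, Hk2 3.39 and Hif1a 2.44. Pdk1 was lower by a log2 difference of -1.58.

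**Figure D5:**
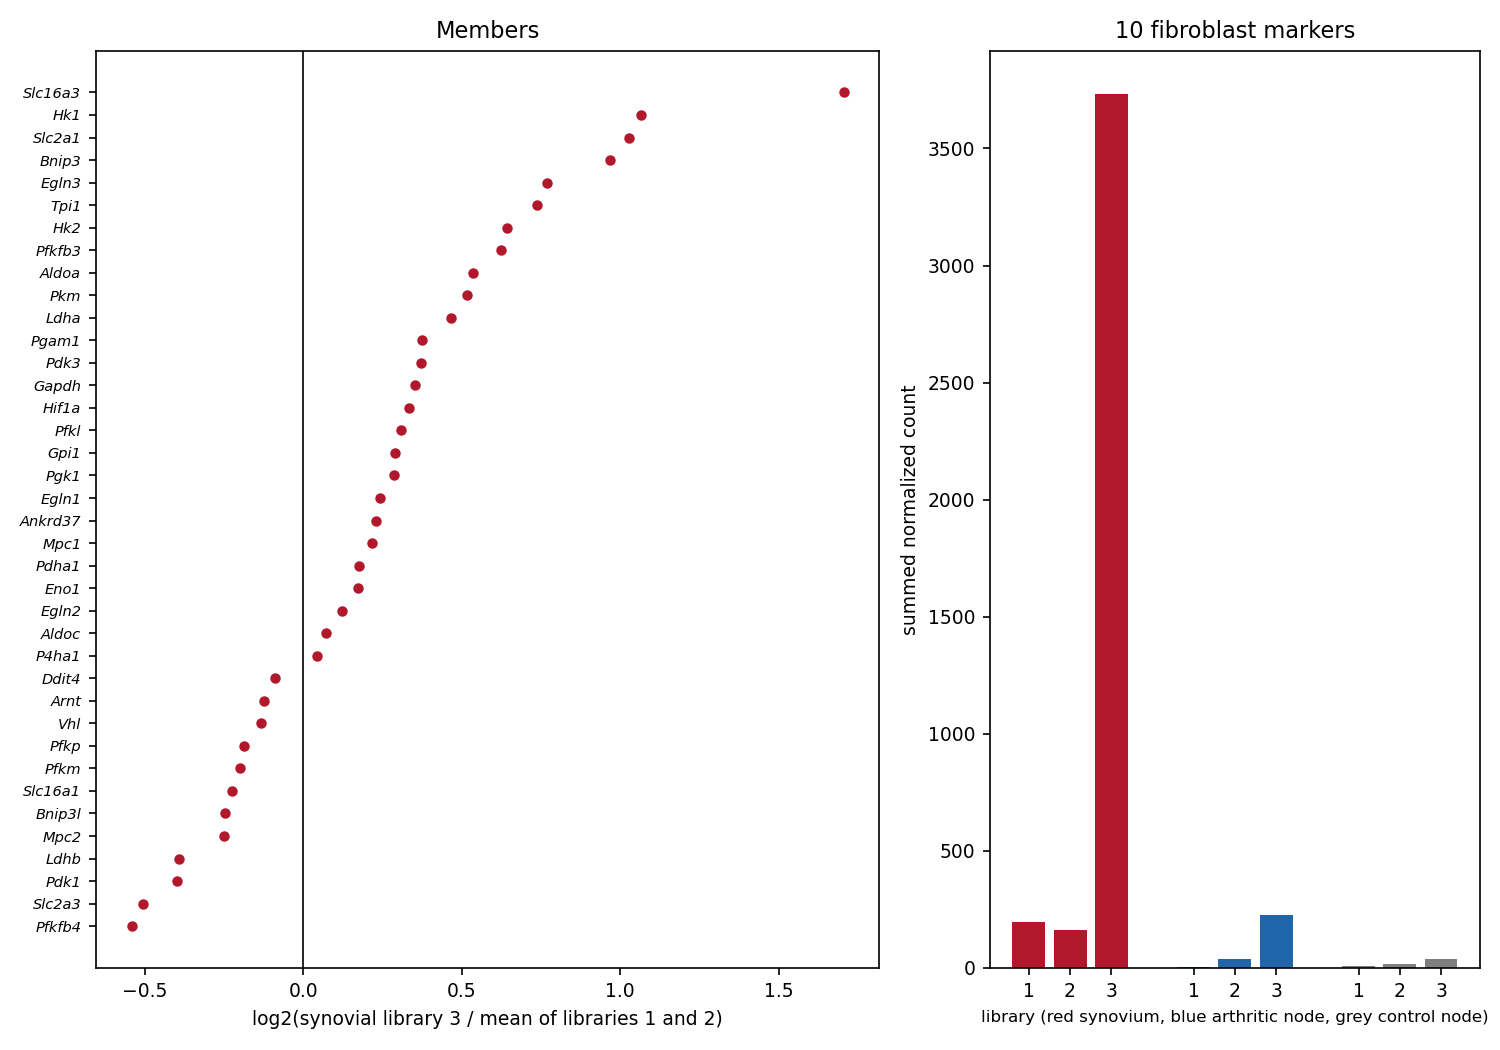
Left, log2 of synovial library 3 over the mean of synovial libraries 1 and 2 for each member tested; right, summed normalized counts of 10 fibroblast markers (all in the table but Thy1 and Prg4) in each library. Slc16a3, Hk1 and Slc2a1 lie furthest right at ratios of 3.26, 2.09 and 2.04, and the marker sum is 3731 in synovial library 3, 196 and 160 in the other synovial libraries and 1.74 to 227 in arthritic nodes.

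The comparison of node Tregs between arthritic and control mice asked what changed in the draining node with disease. None of the 38 members passed in limma, where 0.335% of genes were higher and 0.00881% lower, and edgeR's quasi-likelihood test on recovered reads also called 0. DESeq2 called P4ha1 (adjusted p = 0.016) and Slc2a3 (0.0439), both higher in arthritic mice. Of 11328 genes given an adjusted p by DESeq2, it called 136 higher and 37 lower. At an unadjusted p under 0.05 in limma there were 6 members, P4ha1, Slc2a3, Slc16a1, Egln3, Ddit4 and Slc16a3, beside 9.08% of all genes. P4ha1 had 2255, 2029 and 1701 normalized counts in arthritic nodes and 1356, 1357 and 1387 in control nodes, a log2 difference of 0.54. Slc2a3 had 2491, 2488 and 1873 against 1574, 1490 and 1482, a log2 difference of 0.58. In both, each arthritic library lay above each control library. The lactate carriers diverged in value, with log2 differences of 1.30 for Slc16a3 and -0.61 for Slc16a1, and Egln3 stood at 1.00, Hif1a at 0.27, Ddit4 at -0.33, Pdk1 at -0.25 and Hk2 at -0.96 (-0.28 without arthritic node library 2). Of the members, 6 were higher and 3 lower with no overlap of libraries, against 7.89% and 7.03% of all genes. No member passed in limma when any 1 library was left out, control node library 1 included.

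Synovial Tregs were also set against node Tregs of control mice, which differ in tissue and in disease and share libraries with the comparisons above. Here 22 members were higher and 4 lower, where 21.6% and 18.5% of all genes were. With no overlap of libraries, 23 were higher and 5 lower, against 26.2% and 23.8% of all genes. The log2 differences were 2.82 for Hif1a, 4.70 for Egln3, 4.89 for Slc16a3, 2.65 for Hk2 and -1.96 for Pdk1, beside 2.55, 3.71, 3.59, 3.61 and -1.71 against arthritic nodes. Without synovial library 3, Slc16a3 stood at 4.29 above control nodes. Pgam1 (0.80), P4ha1 (0.59), Egln2 (0.68) and Slc2a3 (0.45) were higher here and Ddit4 (-0.54) lower, none of which passed against arthritic nodes. Slc2a3 was near the threshold (adjusted p = 0.0384) and was lost without synovial library 1 or 2 or any 1 control library. It was also lost in edgeR (adjusted p = 0.0509), under TMM and quantile scaling (0.0541 and 0.272) and with no trend (0.0991). The same held with no filter on low values (0.0527) and with only the groups compared (0.05001). Egln2 was lost without synovial library 1 or 3 or control library 1 or 2, and Slc16a1 (0.73) without synovial library 1 or 2 or control library 1 or 2. In edgeR 19 members were higher and 4 lower, without Slc2a3, Arnt and Mpc1, and in DESeq2 23 and 4, with Bnip3l added. Bnip3l did not pass in limma (adjusted p = 0.0567). Taking all 6 node libraries at once, 21 of the 38 members were higher in every synovial library than in any node library, as were 20.6% of all genes, and 4 were lower (Pfkm, Ldhb, Pdha1 and Pdk1), as were 17.8%.

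The rest of the pathway was read from 4 wider lists, also chosen with earlier results of these data known. Of 19 further glycolysis and pyruvate genes tested, 5 were higher and 3 lower in synovium than in arthritic node, near the shares of all genes (17.9% and 15.9%), with a median log2 difference of 0.07 where that of all genes was 0.00. Slc2a6 among the higher and Ldhd among the lower passed the filter on low values through 1 group alone, so each had to differ. Slc2a6, a glucose transporter of the lysosome membrane, had 108, 148 and 88.8 normalized counts in synovium and no read in arthritic nodes, which is at least 42.5-fold higher against 3 reads per library. Pdp1, the phosphatase that reactivates pyruvate dehydrogenase and so opposes Pdk1, rose by 2.30 ± 0.19 from 277 ± 34.1 to 1363 ± 113. Bsg, the chaperone that Slc16a1 and Slc16a3 need to reach the cell surface, rose by 0.65 and Slc2a8 by 1.38. Eno3, the muscle enolase, fell by 2.67 and Pdk2, another kinase of pyruvate dehydrogenase, fell by 1.37.

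Of 33 other HIF pathway and hypoxia response genes, 16 were higher and 1 lower, against 17.9% and 15.9% of all genes, with a median log2 difference of 1.32 against 0.00. Adm and Pygl, among the higher, had arthritic node means under the filter of 10, so the filter favoured a rise in each. Ldhd, Adm and Pygl are named for this effect of the filter after their values were seen. Epas1 (HIF-2alpha), a second oxygen-regulated subunit, had 846, 687 and 833 normalized counts in synovium and 23.5, 64.5 and 0 in arthritic nodes. Bhlhe40, a repressor induced by hypoxia and by T cell activation, averaged 19257 ± 4606 against 566 ± 42.5 and rose by 5.06 ± 0.30. Mxi1, an antagonist of Myc, rose by 4.46 and Errfi1, an inhibitor of EGF receptor signalling, by 4.39, while Car12, a carbonic anhydrase, fell by 2.53. Between arthritic and control nodes limma called Rora, a nuclear receptor, alone of the 4 lists, at 924 ± 149 against 386 ± 150 (log2 difference 1.31, adjusted p = 0.0382). The call was lost in edgeR (adjusted p = 0.0693) and when any 1 library other than control node library 3 was left out (adjusted p from 0.0644 to 0.233). DESeq2 called Rora higher, and Mapkap1 and Myc lower. Of 36 genes of the mTORC1 pathway, which couples nutrients to growth, 6 were higher and 5 lower, at a median of -0.12. These shares of 16.7% and 13.9% are near those of all genes (17.9% and 15.9%). Among single genes of that list, Rheb, its activator, rose by 1.80, and the AMPK genes split, with Prkab2 higher by 2.97 and Prkag2 lower by a log2 difference of -1.89. Myc, which drives glycolytic genes in activated T cells, fell by 0.75, from 3886 ± 871 in arthritic nodes to 2265 ± 117 in synovium. Of 9 pentose phosphate genes none passed in limma, edgeR or DESeq2, with 1 at an unadjusted p under 0.05 in limma.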

How the data were processed

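RNA was sequenced from 9 libraries in 3 groups of 3, taken from the sample titles, which number the mice. The submitters' processing notes name HISAT2, HTSeq, DESeq2 and mm10; their versions, the annotation and the strand setting are not stated there. The deposited table gives a signal per gene and library, which is a read count scaled by the library's own size factor. All values (100%) were whole multiples, within 0.01, of a constant per library, and 3 reads equalled 2.61 to 3.52 normalized counts. The floor of 3 reads covers counting error only, while the SDs and limma's standard errors come from the spread between libraries. The authors' deposited comparison table gives a mean signal, log2 fold changes with errors, a test score and p-values, per the file headers. Its direction was settled by a DESeq2 rerun that differed by at most 1.4e-06 in log2 fold change, and it called the same 19 members higher and 3 lower.

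The members and gene lists were chosen with earlier results of these data known. Groups were compared by limma 3.58.1 (R 4.3.3, eBayes with trend, two-sided) on log2(normalized value + 1). All 9 libraries shared a fit of the 11357 genes whose mean reached 10, with Benjamini-Hochberg adjustment. Fold changes are on that scale, which understates the change of low genes. All 39 members could be named, and of the 4 other pathway lists at most 4 genes in each direction (3 in the node comparison), taken by size of change from called genes whose higher group averaged at least 50 and whose groups did not overlap. edgeR 4.0.16 and DESeq2 1.42.0 were run on recovered reads and called 3648 and 4065 genes between synovium and arthritic node. Alternatives changed the pseudocount (0.5, 5), filter, variance model, scaling, test, libraries fitted, fold threshold and mouse block. Synovial and node libraries of arthritic mice with the same number were read as the same animal, by the titles; their deviations correlated at 0.02, 0.05 and 0.09. Lengths, positions and shared 50-base stretches were from GENCODE vM21 on GRCm38. On counts simulated for 11357 genes in the tissue comparison, 200 of them changed, 36% of 2-fold and 59% of 4-fold changes were called, and 0.0359% of unchanged genes. The data gave 3844 calls there, so the adjusted cutoff was stricter in the simulation. Its shares do not measure the sensitivity of the reported comparison.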

Additional observations from a re-analysis of the deposited data

How the results depend on the processing

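Precision was limited by 3 libraries a group and, for low genes such as Eno1, by depth. Nothing separates tissue from differences in handling of paws and nodes. In the tissue comparison, 15 to 19 members stayed higher and 3 to 4 lower when 1 library was left out, and 14 to 20 higher and 3 lower under the other settings without a fold threshold. Under quantile scaling 1711 genes were higher and 2344 lower, in place of 2034 and 1810, and the members had a median of 0.35. A threshold of at least 2-fold left 10 members higher and 1 lower of 2146 genes against arthritic nodes, and 9 and 1 of 2646 against control nodes. The fit with no trend lost Arnt and Bnip3l, edgeR lost Bnip3l, and library weights added Egln2.

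With the mouse number as a block, 18 members were higher and 3 lower between synovium and arthritic node, and Bnip3l was the only call that changed among the members. Against control nodes, whose mice share only a number with the arthritic ones, 20 were higher and 4 lower. The block called 0 of all genes between arthritic and control nodes. There the count of all genes was 39, against 10 with no trend, 0 with only the groups compared and 173 by DESeq2, which called 2 members. It ranged from 0 to 66 when 1 library was left out: 0 without arthritic node library 2, 1 without arthritic node library 3, 15 without synovial library 1, 23 without control library 2 and 66 without control library 3.

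Signs changed only for uncalled members and overlapping pairs, and the cause was not tested. Gpi1 was -0.024 under TMM scaling, -0.016 in edgeR, -0.24 under quantile scaling and -0.082 to 0.10 with 1 library left out. P4ha1 was -0.059 with library weights, -0.17 under quantile scaling and -0.060 to 0.14 with 1 left out. Pfkfb3 was -0.080 in edgeR, -0.043 in DESeq2 and -0.56 to 0.85 with 1 left out. Vhl was -0.0081 under TMM scaling and -0.10 to 0.12 with 1 left out, Mpc2 was -0.014 under quantile scaling, and Slc2a3 ranged from -0.26 to 0.042. The ratio of Pfkp to Pfkl ranged from -0.25 to 0.041 and that of Pfkfb4 to Pfkfb3 from -0.25 to 1.92.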
